A study of Mus musculus with 6 samples.

Results

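The genes described here are 34 members of the p53 pathway, taken by symbol from a table of 24421 gene symbols measured in C2C12, an established line of mouse muscle precursor cells that can be made to form myotubes. All 34 symbols were in the table and all 34 passed the filter on low counts, which kept 11801 symbols. The members were grouped by role into feedback on p53 itself (5 genes), cell cycle arrest (6), apoptosis (15), DNA repair (5) and metabolism (3). The libraries form 2 groups of 3. Both came from C2C12 myoblasts given a lentivirus, selected with puromycin and differentiated in 2% horse serum with 4.5 g/l glucose. For both groups 10% fetal bovine serum is listed as well. The hairpin RNA on the virus was directed against Gaa, the gene of lysosomal acid alpha-glucosidase, in the shGAA group and was of scrambled sequence in the shScrambled group, and the labels place the word Fed in the titles of both. How many hairpins were used, and whether each library is a culture of its own, is not stated in the labels; p-values therefore cover the spread among these 6 libraries, and that spread may be technical only.

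The protein p53, encoded by Trp53 in the mouse, is a transcription factor that is kept scarce by Mdm2 and is stabilised when DNA is damaged, nucleotides run short or other stresses arise. It then raises the transcripts of genes that halt the cell cycle, repair DNA, restrain growth signalling or kill the cell, and also those of its own inhibitors, which close a feedback loop. Because p53 is controlled mainly as a protein, its own transcript need not change when its targets do. Several of the targets are also raised by other factors: in differentiating muscle, MyoD raises Cdkn1a without p53, and FoxO and stress-response factors act on some of the others. The p53 protein was not measured here.

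The libraries held 9224038 to 10430270 counts each. The spread inside a group exceeded counting noise: chi-square over its degrees of freedom ran from 1.95 to 2.54 for pairs of shGAA libraries and from 2.25 to 5.87 for pairs of controls, and both values above 5 involved shScrambled 1. Gaa was lower in all 3 shGAA libraries, at 47.5 to 51.9 CPM (counts scaled to a common library size, with a correction for composition) against 106 to 124 in shScrambled. In edgeR's quasi-likelihood test this was a log2 fold change of -1.25 ± 0.07 (SE; adjusted p = 1.09e-09). Of the 8 skeletal muscle markers, 6 were lower in shGAA (75%, against 19.7% of all 11801 tested genes) and 2 did not pass. The summed level of the 8 was 2042 to 2235 CPM against 2746 to 3020. Markers of leukocytes and adipocytes summed to at most 1.23 CPM in any library, and 3 of 6 and 3 of 5 of them had no count. Endothelial markers summed to 2.46 to 5.23 CPM, with Emcn at 0 and Pecam1 at 2 counts in all; at low counts, Tek was higher in shGAA (113 against 43 counts, log2 fold change 1.32, adjusted p = 0.00176) and Cdh5 lower (20 against 49 counts, -1.35, adjusted p = 0.0280), the latter with overlapping groups. Of 7 osteoblast and chondrocyte markers, Sox9 alone gave more than 10 counts, and it was lower in shGAA (75.9 against 108 CPM, log2 fold change -0.50, adjusted p = 9.6e-06) without overlap. The part of these marker changes in the results was not tested. Fewer cells of a type and less RNA per cell cannot be told apart in such bulk libraries.

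The RNA of many p53 pathway genes was higher in shGAA. Of 34 members, 18 were higher, 2 were lower and 14 did not pass at an adjusted p under 0.05, with adjustment over all tested genes. Over all 11801 tested genes 18.5% were higher and 19.7% lower, together 38.2%, so that higher calls were more frequent among the members (52.9%) and lower calls less frequent (5.88%); no test of the list was made, since the members were chosen with results of these data known. The median log2 fold change was 0.24 over the members and 0.01 over all tested genes. Of the 34 members, 18 had every shGAA library above every shScrambled library and 2 had every one below. Over all tested genes these shares were 24.7% and 24.9%. The members without overlap were the 20 called ones, and a call on the same libraries makes such a separation likely. Most differences were small: 3 called members, Perp, Trp53inp1 and Ddit4l, reached 2-fold, and the others lay between 1.17-fold and 1.66-fold. Scaled by library size alone, higher genes made up 60.0% of all calls in place of 48.4%, and 19 members were higher and 2 lower.

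**Figure D1:**
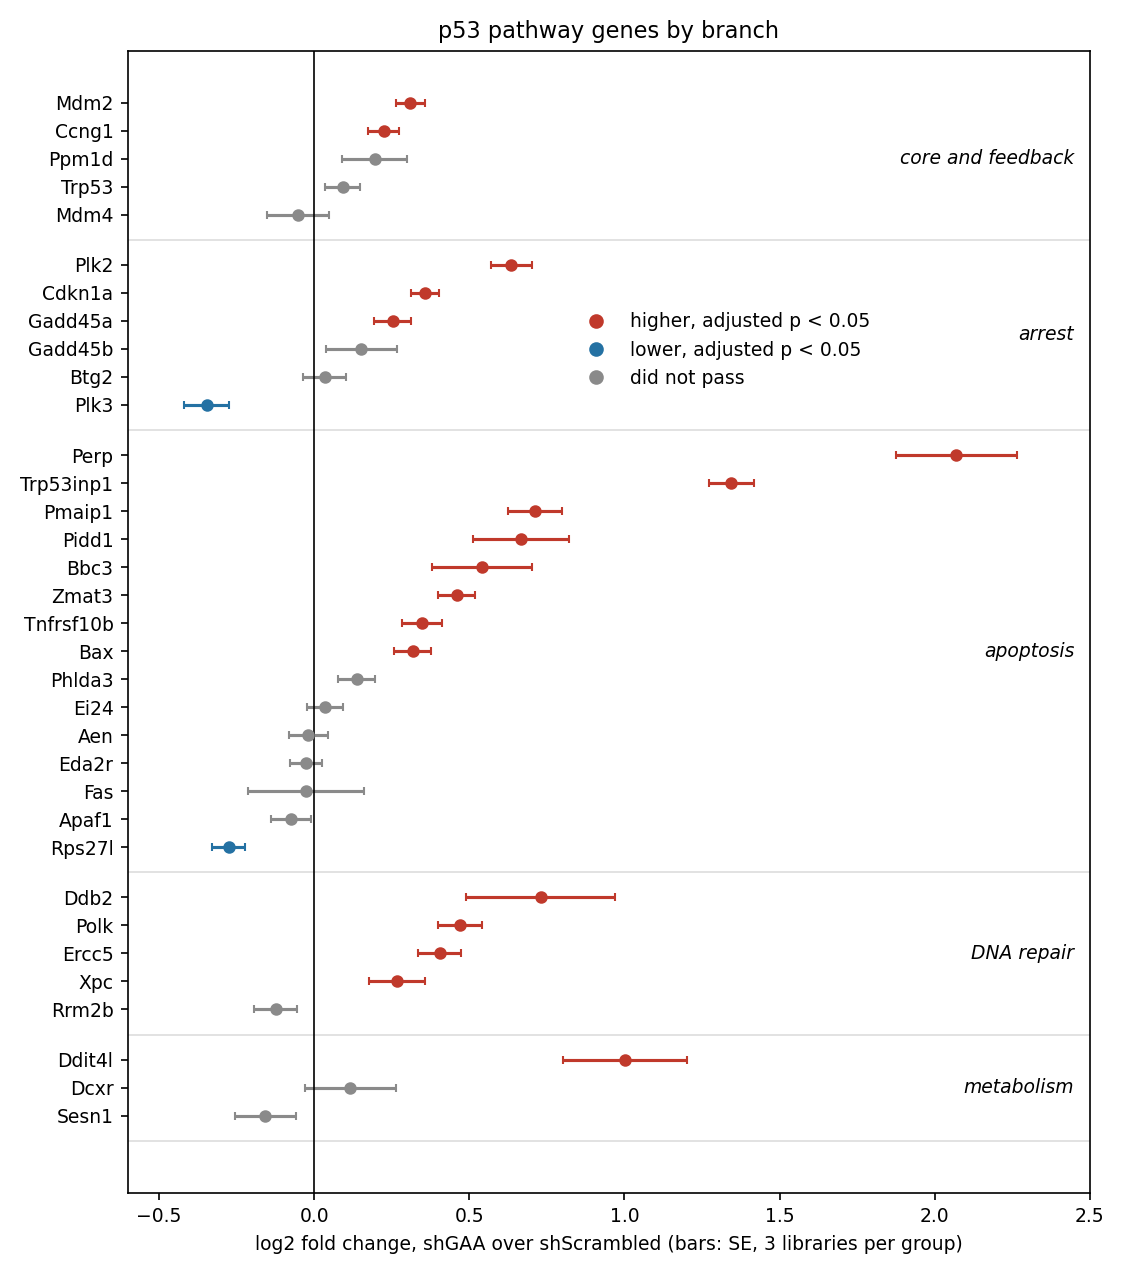
Log2 fold change of each of the 34 members, shGAA over shScrambled, grouped by branch, with bars for the SE (3 libraries per group) and colour for the call. The 18 higher members lie between 0.22 and 2.07, and Plk3 (-0.35) and Rps27l (-0.28) are the 2 lower ones.

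The members stood at like levels in the 3 shGAA libraries. The median of all 34 members lay 0.24, 0.25 and 0.23 above the shScrambled mean in shGAA 1, 2 and 3 on the log2(CPM + 0.5) scale. The median of the 18 higher members, which were selected for being higher, lay 0.45, 0.49 and 0.43 above it. Among the controls the median of these 18 lay 0.11 below the mean of the other controls in shScrambled 1, 0.01 above in shScrambled 2 and 0.06 above in shScrambled 3. The control library that stood apart from its group was the lowest for these genes. It was also the highest for several muscle markers, such as the embryonic myosin gene Myh3 at 107 CPM against 62.2 and 64.8 in the other controls. Without this library, 18 members were again higher, and 3 were lower.

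**Figure D2:**
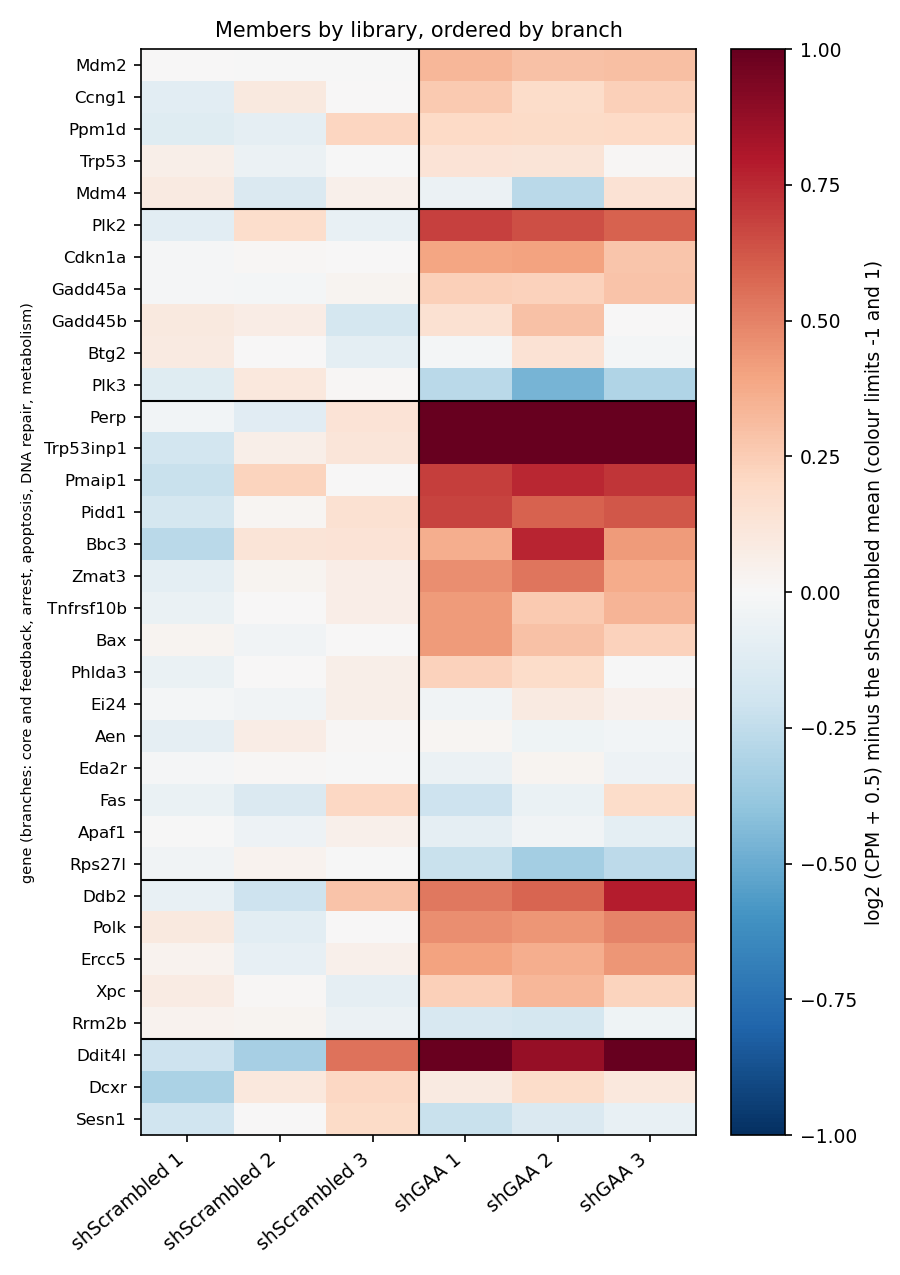
Level of each member (rows, ordered by branch) in each of the 6 libraries (columns), as log2(CPM + 0.5) minus the mean of the 3 shScrambled libraries, with the colour scale limited at -1 and 1. Perp and Trp53inp1 are above the limit in all 3 shGAA libraries, and Ddit4l varies most among the controls.

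Promoter sequences of members are shown because many of the genes moved together. RefSeq gave a promoter, 250 bases before to 50 bases after an annotated start on GRCm38.p6, for 26 of the 34 members. Each was searched for the p53 decamer, the 10-base consensus that occurs as a pair in a full p53 response element, and for the paired core, in which the 4 central bases of a decamer (C, then A or T at both middle places, then G) occur again after 6 bases of any kind. Both motifs read the same on either strand, a paired core can overlap a decamer, and the motifs were chosen after the fold changes were known. The decamer was found in 13 of 26 members and in 9.55% of the 27025 genes with a promoter in the table. The paired core was found in 6 of 26 and in 8.19%, and 4 members had both. Because the members were listed as p53 pathway and target genes, an excess of matches says nothing about these libraries. By call, the decamer was in 7 of 11 higher members, in 1 of 2 lower members and in 5 of 13 that did not pass, so matches occurred in all 3 classes. A match describes the letters in this window only, and response elements of these genes can lie outside it.

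Cdkn1a, which encodes p21, has an upstream start on chromosome 17 whose promoter (chr17:29090729-29091028, plus strand, GRCm38.p6) held 2 decamers and 1 paired core. They are in capitals here, and the second decamer and the paired core overlap:
Cdkn1a: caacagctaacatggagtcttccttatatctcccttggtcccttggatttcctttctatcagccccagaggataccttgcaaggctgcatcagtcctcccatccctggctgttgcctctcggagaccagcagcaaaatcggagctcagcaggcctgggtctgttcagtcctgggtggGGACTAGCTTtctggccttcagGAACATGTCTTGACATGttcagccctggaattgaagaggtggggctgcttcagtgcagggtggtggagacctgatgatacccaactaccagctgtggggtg
The other annotated start of Cdkn1a, at chr17:29093519-29093818, held neither motif.

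The paired core (capitals) of 2 more members that were higher, Bbc3 (chr7:16309469-16309522) and Plk2 (chr13:110395021-110395074), is set beside that of the lower member Rps27l (chr9:66946279-66946332) and of Trp53 (chr11:69580267-69580320) and Aen (chr7:78895920-78895973), which did not pass. All 5 are on the plus strand with 20 bases on each side:
Bbc3: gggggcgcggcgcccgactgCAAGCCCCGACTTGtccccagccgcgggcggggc
Plk2: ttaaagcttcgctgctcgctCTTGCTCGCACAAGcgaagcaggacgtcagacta
Rps27l: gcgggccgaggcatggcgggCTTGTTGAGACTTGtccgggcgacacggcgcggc
Trp53: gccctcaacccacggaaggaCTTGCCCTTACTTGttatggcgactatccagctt
Aen: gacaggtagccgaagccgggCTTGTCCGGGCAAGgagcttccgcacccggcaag
The feedback genes Mdm2 (chr10:117710915-117710964) and Ccng1 (chr11:40755442-40755491), both on the minus strand and both higher in shGAA, held a decamer but no paired core:
Mdm2: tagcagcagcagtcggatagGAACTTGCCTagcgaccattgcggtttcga
Ccng1: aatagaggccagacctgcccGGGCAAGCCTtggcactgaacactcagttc

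The transcript of p53 itself did not pass the test, while 2 of the 4 genes that act back on it rose. With Trp53 counted, 40% of this branch was higher, against 18.5% of all tested genes. Trp53, on chromosome 11 at 69580348 to 69591873, stood at 134, 134 and 123 CPM in shGAA 1 to 3 and at 128, 118 and 122 in shScrambled 1 to 3. The groups overlapped, and the log2 fold change was 0.09 ± 0.06 (adjusted p = 0.211), with a 95% interval of -0.03 to 0.21. A processed copy, Trp53-ps, shares 3.88% of the 50-base stretches of its transcripts.

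Mdm2, the ubiquitin ligase that marks p53 for destruction, had 248, 241 and 242 CPM in shGAA against 197, 196 and 196 in shScrambled. The libraries within each group were almost level and the groups did not overlap, with a rise of 0.31 ± 0.05 (adjusted p = 4.95e-05). Ccng1, which encodes cyclin G1, a partner of phosphatase 2A that acts on Mdm2, had 588, 557 and 580 CPM against 456, 527 and 494. It was higher in every shGAA library and rose by 0.22 ± 0.05 (adjusted p = 0.00241). Mdm4, which binds p53 and blocks its activity, varied more within the groups (55.1 to 73.5 CPM in shGAA and 59.9 to 70.8 in shScrambled) and was at -0.05 ± 0.10 (adjusted p = 0.710). Ppm1d, a phosphatase that removes activating marks from p53 and its kinases, was at 22.7 to 22.9 CPM in shGAA and 18.2 to 23.2 in shScrambled. Its groups overlapped in shScrambled 3 alone, with a log2 fold change of 0.19 ± 0.11 (adjusted p = 0.160), and without that library it passed at 0.31 (adjusted p = 0.0350).

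Of the 6 genes of cell cycle arrest 3 were higher, 1 was lower and 2 did not pass, with a median of 0.20. These shares were 50% higher and 16.7% lower, against 18.5% and 19.7% over all tested genes. Cdkn1a blocks cyclin-dependent kinases through its product p21. It had 746, 751 and 688 CPM in shGAA and 563, 572 and 569 in shScrambled, so that every shGAA library was above the nearly equal controls, with a rise of 0.36 ± 0.04 (1.28-fold, adjusted p = 9.85e-06). Per kilobase of exonic length it was the most abundant member in shScrambled, at 160 CPM per kb, followed closely by Rps27l (160) and then by Ccng1 (140) and Phlda3 (112), while Ddb2 (0.811) and Perp (0.974) were the lowest. Annotated exons on the opposite strand (AC167363.2) cover 7.68% of Cdkn1a.

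The polo-like kinases of the list moved in opposite directions. Plk2, on chromosome 13 at 110395044 to 110400844, is a stress-induced kinase that acts on centriole duplication. It had 359, 348 and 335 CPM in shGAA against 207, 252 and 212, with no overlap and a rise of 0.63 ± 0.07 (adjusted p = 5.48e-06). Plk3, a kinase of the stress response that can phosphorylate p53, had 59.6, 52.2 and 58.5 CPM against 66.4, 77.6 and 72.7. Every shGAA library was below every control, a fall of 0.35 ± 0.07 on the log2 scale (adjusted p = 0.00106). Gadd45a, a growth arrest protein that binds the replication clamp, had 67.0, 66.6 and 69.2 CPM against 56.3, 55.9 and 58.0. Both groups were tight and apart, with a rise of 0.25 ± 0.06 (adjusted p = 0.00287), although E230016M11Rik covers 19.1% of its exonic bases on the opposite strand. Gadd45b, its relative, was at 0.15 ± 0.11 (adjusted p = 0.318, 95% interval -0.09 to 0.39), and Btg2, an antiproliferative protein that recruits the mRNA deadenylation machinery, at 0.03 ± 0.07 (adjusted p = 0.731, interval -0.11 to 0.18).

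**Figure D3:**
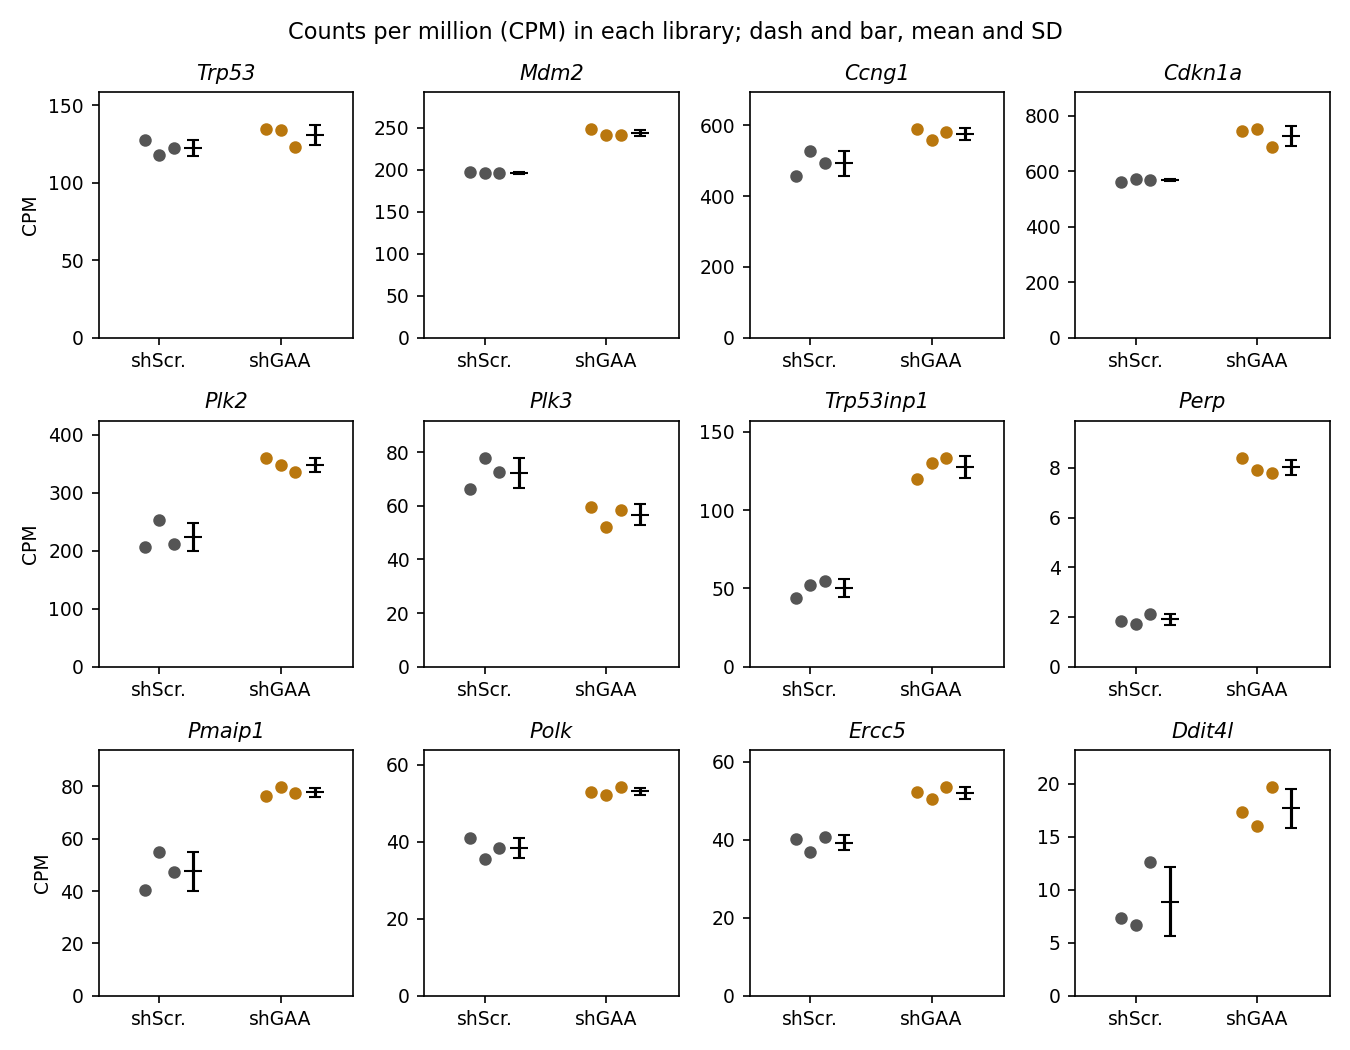
CPM in each library for 12 members (points; grey shScrambled, orange shGAA; each panel starts at 0), with the mean and SD of the 3 libraries beside them. Trp53 overlaps between the groups, Plk3 is lower in shGAA and the other 10 are higher without overlap.

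In the apoptosis branch 8 of 15 members were higher, 1 was lower and 6 did not pass, with a median of 0.32. The shares in this branch were 53.3% higher and 6.67% lower, against 18.5% and 19.7% over all tested genes. The largest rises of the whole list were here. Perp encodes a membrane protein of cell junctions that is needed for some forms of p53-dependent death, and lies on chromosome 10 at 18845071 to 18857073. It had 82, 74 and 83 counts in shGAA and 18, 16 and 20 in shScrambled, or 8.02 ± 0.309 against 1.90 ± 0.213 CPM (SD, n = 3). This was a low transcript in both groups with a wide gap, 2.07 ± 0.20 on the log2 scale (4.20-fold, adjusted p = 4.13e-07).

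Trp53inp1, a nuclear protein that promotes the activating phosphorylation of p53 and also takes part in autophagy, was the most precisely measured of the large changes. Its levels were 120, 130 and 133 CPM in shGAA and 44.0, 52.1 and 54.5 in shScrambled. The lowest shGAA library was more than 2 times the highest control, and the rise was 1.34 ± 0.07 (2.54-fold, adjusted p = 1.66e-09). It lies on chromosome 4 at 11156441 to 11174379, and no copy or overlapping exon was found for it.

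Genes of the mitochondrial death route rose by smaller amounts. Pmaip1 (NOXA), a BH3-only protein that neutralises Mcl1, had 76.2, 79.6 and 77.4 CPM against 40.3, 55 and 47.2. The shGAA libraries were level and the controls spread, with shScrambled 1 lowest, and the rise was 0.71 ± 0.09 (adjusted p = 2.21e-05). Bax, the pore-forming effector, was at 110 to 126 CPM against 91.1 to 95.5, a rise of 0.32 ± 0.06 (adjusted p = 0.000426); Gm45808 shares 12.2% of its exonic bases on the same strand. Bbc3 (PUMA), the other BH3-only protein of the list, was at 9.81 to 13.1 CPM against 6.16 to 8.33, or 0.54 ± 0.16 (adjusted p = 0.0133). It rested on 60 to 123 counts a library and did not pass without shGAA 2 (0.41, adjusted p = 0.0905). Apaf1, the scaffold of the apoptosome downstream of these proteins, was at -0.08 ± 0.06 (adjusted p = 0.380).

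Of the 3 members that encode receptors of the TNF receptor family 1 was higher and 2 did not pass, where 18.5% of all tested genes were higher. Tnfrsf10b, the mouse receptor for the death ligand TRAIL, had 82.5, 73.6 and 77.4 CPM against 58.3, 61.3 and 64.0. The groups did not overlap, and it rose by 0.35 ± 0.06 (adjusted p = 0.000368). Fas, the receptor for Fas ligand, was low, at 4.6 to 6.2 CPM against 4.83 to 6.30. Its log2 fold change of -0.03 ± 0.19 (adjusted p = 0.924) had a 95% interval of -0.42 to 0.37, which leaves room for a change of the size seen in Tnfrsf10b. Eda2r, the receptor of ectodysplasin A2, had 126 to 134 CPM in shGAA and 130 to 132 in shScrambled and was at -0.03 ± 0.05 (adjusted p = 0.726), with the narrower interval of -0.13 to 0.08.

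Among the remaining apoptosis members, Zmat3, an RNA-binding zinc finger protein, had 125, 131 and 117 CPM against 84.3, 92.1 and 94.8. It rose by 0.46 ± 0.06 (adjusted p = 1.70e-05), with all shGAA libraries above the controls. Pidd1, which assembles the platform that activates caspase-2, was at 8.54 to 9.09 CPM against 4.83 to 6.19 and rose by 0.67 ± 0.15 (adjusted p = 0.00258). Rps27l, a ribosomal protein relative that is itself a p53 target, was the lower member, at 103 to 111 CPM against 127 to 134. It fell by 0.28 ± 0.05 on the log2 scale (adjusted p = 0.000618), shares 11.2% of its 50-base stretches with Gm14706, and under the correction for gene length and GC content stood at -0.17 (adjusted p = 0.0118). Phlda3, which restrains Akt, was at 0.14 ± 0.06 (adjusted p = 0.0841). It overlapped between the groups through shGAA 3, without which it was at 0.21 (adjusted p = 0.0141); it also passed when scaled by library size alone (0.18, adjusted p = 0.0218), with no filter on low counts (0.14, adjusted p = 0.0414) and after correction for length and GC content (0.17, adjusted p = 0.0098). The exonuclease gene Aen (-0.02 ± 0.06, adjusted p = 0.841) and the endoplasmic reticulum gene Ei24 (0.03 ± 0.06, adjusted p = 0.668) overlapped between the groups.

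In DNA repair, 4 of 5 members were higher and 1 did not pass, with a median of 0.41. That is 80% higher, against 18.5% of all tested genes. Polk, the polymerase that copies past bulky lesions, had 52.9, 52.1 and 54.0 CPM against 40.9, 35.5 and 38.4. The shGAA libraries were level and all above the controls, with a rise of 0.47 ± 0.07 (adjusted p = 6.76e-05). Ercc5 (XPG), the nuclease that cuts on the 3' side of a lesion in nucleotide excision repair, had 52.1, 50.5 and 53.4 CPM against 40.3, 36.9 and 40.6. It rose by 0.41 ± 0.07 (adjusted p = 0.000203), again without overlap.

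The lesion recognition genes of the same repair route were less firmly measured. Xpc, which detects helix distortion, was at 26.5 to 28.6 CPM against 21.2 to 23.9, or 0.27 ± 0.09 (adjusted p = 0.0272). Ddb2, which recognises ultraviolet damage, had 33, 33 and 44 counts against 20, 17 and 26, or 0.73 ± 0.24 (adjusted p = 0.0240), and Acp2 covers 23.8% of its exonic bases on the opposite strand. Neither passed in DESeq2 (adjusted p = 0.0894 for Xpc and 0.0990 for Ddb2), without shGAA 2 (0.104 and 0.0503) or without shScrambled 2 (0.0509 and 0.0873), so that 2 repair members were higher under each of these. Xpc also did not pass without shGAA 1 (adjusted p = 0.0543) or shScrambled 3 (0.102), nor Ddb2 without shGAA 3 (0.101). Rrm2b, a ribonucleotide reductase subunit that supplies nucleotides for repair, was at 46.5 to 51 CPM against 50.3 to 53.7, or -0.12 ± 0.07 (adjusted p = 0.160); after correction for length and GC content it passed as lower (-0.16, adjusted p = 0.0437).

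Of the 3 metabolic members 1 was higher and 2 did not pass. That is 33.3% higher, against 18.5% of all tested genes, and rests on a single gene. Ddit4l (REDD2), an inhibitor of the growth kinase complex mTORC1, had 17.4, 16.0 and 19.6 CPM in shGAA and 7.29, 6.66 and 12.6 in shScrambled. The groups did not overlap although shScrambled 3 was well above the other controls, and the rise was 1.00 ± 0.20 (2.00-fold, adjusted p = 0.00235). Sesn1, a sestrin that also restrains mTORC1, was at 28 to 31.1 CPM against 28.6 to 37.5, or -0.16 ± 0.10 (adjusted p = 0.216). Without shScrambled 1 it passed as lower (-0.25, adjusted p = 0.0232). Dcxr, a carbonyl and sugar reductase, was at 0.12 ± 0.15 (adjusted p = 0.561, 95% interval -0.19 to 0.43).

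Close relatives of the members moved in both directions. Trp53inp2, which works in autophagy and is abundant in muscle, had 173 to 184 CPM in shGAA and 232 to 256 in shScrambled. It fell by 0.47 ± 0.05 (adjusted p = 2.15e-06), opposite to Trp53inp1. Plk1, the mitotic polo-like kinase, fell by 0.53 ± 0.06 (adjusted p = 4.43e-06), as Plk3 did and unlike Plk2. Ccng2, the relative of Ccng1, rose by 0.56 ± 0.08 (adjusted p = 3.90e-05). The next 5 relatives were chosen after their values were seen. Sesn2 rose by 0.55 ± 0.08 (adjusted p = 6.81e-05), whereas Sesn3 was at -0.05 ± 0.10 (adjusted p = 0.713). Gadd45g rose by 0.74 ± 0.14 (adjusted p = 0.00880). Ddit4 (REDD1) was at -0.06 ± 0.08 (adjusted p = 0.560), and Btg1 fell by 0.26 ± 0.06 (adjusted p = 0.00148). Over the 13 tested relatives fixed as a list, which leaves out Sesn2, 3 were higher, 3 lower and 7 did not pass. This was 23.1% in each direction, near the 18.5% higher and 19.7% lower over all tested genes. Differences between one relative and another were not tested.

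**Figure D4:**
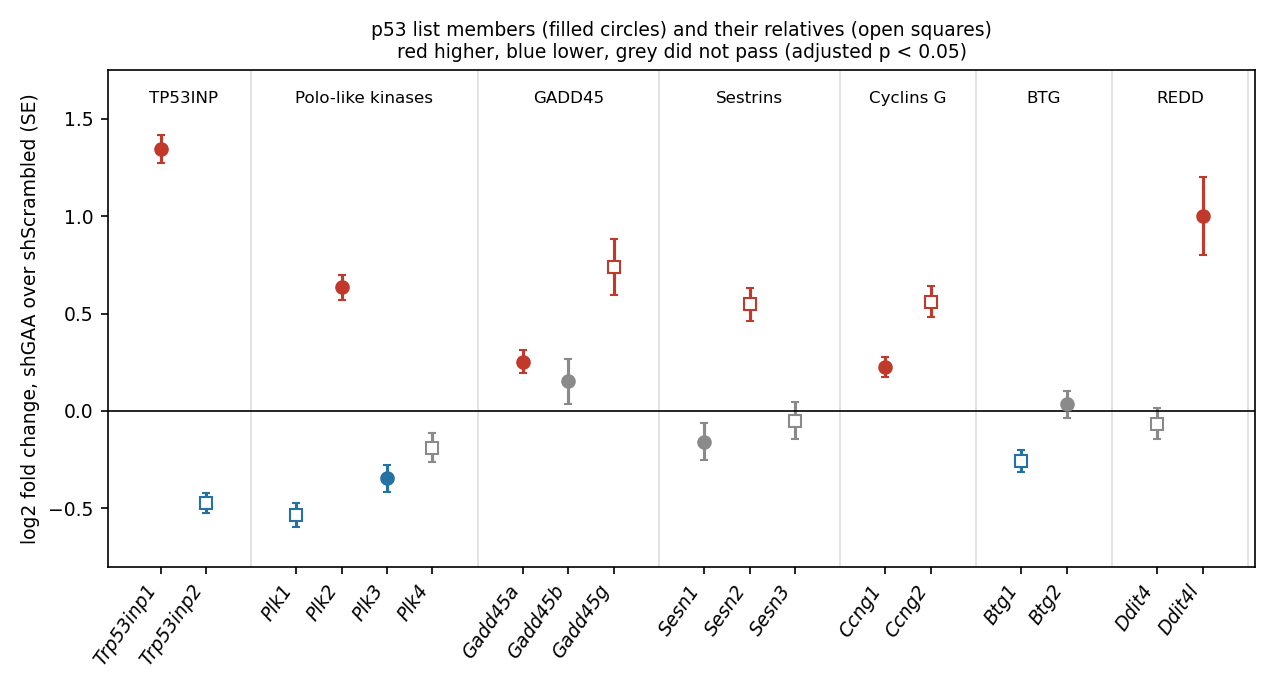
Log2 fold change with SE (3 libraries per group) of members (filled circles) and of their relatives (open squares) in 7 gene families, coloured by call. Called genes of 1 family lie on both sides of 0 in the TP53INP and polo-like kinase groups.

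Transcripts of proteins that act on p53 moved in both directions. Of 17 tested upstream regulators 4 were higher, 4 were lower and 9 did not pass, with a median of -0.05. The share was 23.5% in each direction, near the 18.5% higher and 19.7% lower over all tested genes. Atm, the kinase that responds to double-strand breaks, had 57.1, 65.6 and 62.7 CPM against 48.6, 46.7 and 52.1 and rose by 0.33 ± 0.07 (adjusted p = 0.00142). Trp53bp1, a repair mediator that binds p53, rose by 0.24 ± 0.05 (adjusted p = 0.00202), and Tubgcp4 covers 15.0% of its exonic bases on the opposite strand. Cop1, a ubiquitin ligase for p53 that the table lists under its older symbol Rfwd2, rose by 0.27 ± 0.06 (adjusted p = 0.00271). The remaining higher gene was Ep300 (0.15 ± 0.05, adjusted p = 0.0248). The 4 lower genes were Crebbp (-0.35 ± 0.08, adjusted p = 0.00313), Chek1 (-0.43 ± 0.13, adjusted p = 0.0163), Hipk2 (-0.24 ± 0.07, adjusted p = 0.0165) and Topbp1 (-0.18 ± 0.06, adjusted p = 0.0182). Cdkn2a, whose ARF product shields p53 from Mdm2, had 0 counts in all 6 libraries, and so did its neighbour Cdkn2b and the p53 relative Trp73. A count of 0 allows up to 3 counts, or 0.0515 CPM over the 58249108 counts of all libraries, for counting error only. The other p53 relative, Trp63, had 1 to 7 counts a library and was not tested.

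Further p53 targets from textbook knowledge, none of them a member, moved in both directions. Of 22 tested, 7 were higher, 5 were lower and 10 did not pass, with a median of 0.03. As shares, 31.8% were higher and 22.7% lower, against 18.5% and 19.7% over all tested genes. Psrc1, a microtubule-binding protein, had 34, 35.2 and 38.1 CPM against 17.7, 17.3 and 15.7 and rose by 1.08 ± 0.09 (adjusted p = 1.44e-07). The thiamine transporter gene Slc19a2 rose by 0.60 ± 0.07 (adjusted p = 7.75e-06) and the small GTPase gene Rap2b by 0.46 ± 0.06 (adjusted p = 6.76e-06), but other genes cover 58.3% of the exonic bases of Rap2b on the opposite strand. Thbs1, the gene of the secreted protein thrombospondin 1, was chosen after its values were seen and rose by 0.57 ± 0.07 (adjusted p = 0.000159).

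The rest of the apoptosis machinery also moved both ways, with 6 of 24 tested genes higher, 7 lower and 11 not passing, and a median of -0.01. That is 25% higher and 29.2% lower, against 18.5% and 19.7% over all tested genes. Cflar, which blocks caspase-8 at death receptors, had 183, 174 and 187 CPM against 312, 288 and 284, and fell by 0.70 ± 0.05 (adjusted p = 3.01e-08). Bid, which links death receptors to the mitochondrial route, fell by 0.48 ± 0.07 (adjusted p = 8.45e-05). The survival gene Bcl2, chosen after its values were seen, rose by 0.50 ± 0.10 (adjusted p = 0.00113). Bcl2l1, the gene of BCL-XL, was at 0.18 ± 0.07 (adjusted p = 0.0419), with overlapping groups. It did not pass in DESeq2, after correction for length and GC content or without shGAA 1, shGAA 2, shScrambled 1 or shScrambled 3 (adjusted p of 0.0589 to 0.184).

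Partners of the repair members moved in both directions. Of 16 tested genes of excision repair, lesion bypass and nucleotide supply, 3 were higher, 5 lower and 8 did not pass, with a median of 0.07. Their shares were 18.75% higher and 31.25% lower, against 18.5% and 19.7% over all tested genes. Ercc1, part of the nuclease that cuts on the 5' side of a lesion, had 44.8, 39.3 and 39.5 CPM against 68.5, 61.7 and 57.0. It fell by 0.60 ± 0.08 (adjusted p = 1.69e-05), opposite to Ercc5, whose product cuts on the other side. Rad23b, the partner of Xpc, fell by 0.31 ± 0.04 (adjusted p = 3.55e-05), and the helicase gene Ercc3 by 0.21 ± 0.05 (adjusted p = 0.00297). The 3 higher genes were Xpa (0.35 ± 0.12, adjusted p = 0.0327), Ercc4 (0.30 ± 0.10, adjusted p = 0.0227) and Ddb1 (0.13 ± 0.04, adjusted p = 0.02).

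**Figure D5:**
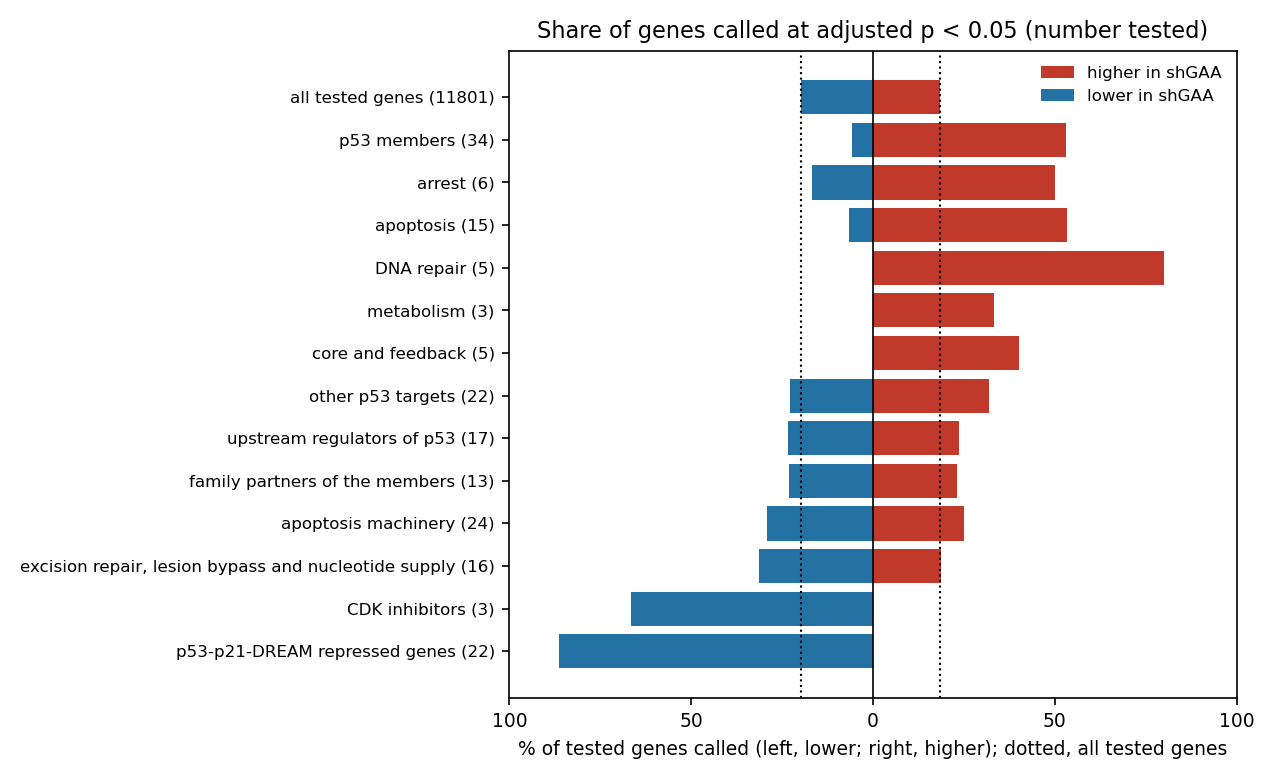
Share of tested genes called higher (right) or lower (left) in shGAA for all 11801 tested genes, the 34 members, their 5 branches and 7 further lists, with the number tested in brackets; dotted lines mark the shares over all tested genes (18.5% and 19.7%). The branches lie to the right and the p53-p21-DREAM list to the left, with 19 of 22 genes lower.

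Genes that p53 is known to lower through p21 and the DREAM repressor complex, mainly those of mitosis and DNA replication, were lower in shGAA. Of 22 tested, 19 were lower (86.4%, against 19.7% of all tested genes) and 3 did not pass. No fold change was above 0, and the median was -0.56. In 20 of the 22 every shGAA library was below every control, against 24.9% of all tested genes. Plk1 and Plk4 are also in the list of relatives, and Chek1 is also in that of upstream regulators. The mitotic kinesin gene Kif20a had 142, 143 and 161 CPM against 282, 288 and 281 and fell by 0.93 ± 0.05 (adjusted p = 1.79e-09). Cdc20, an activator of the anaphase-promoting complex, fell by 0.85 ± 0.05 (adjusted p = 5.71e-09), and the checkpoint kinase gene Bub1 by 0.78 ± 0.07 (adjusted p = 1.34e-07). The fall of cell cycle transcripts in these libraries was known when the list was drawn up. Among other inhibitors of cyclin-dependent kinases, 2 of 3 tested were lower and 1 did not pass. That is 66.7% lower, against 19.7% over all tested genes, in a list of only 3. Cdkn2c (p18) had 24.9 to 25.9 CPM against 33.7 to 34.8 and fell by 0.43 ± 0.08 (adjusted p = 0.000372), and Cdkn2d (p19) fell by 0.46 ± 0.10 (adjusted p = 0.00110), opposite to Cdkn1a. The muscle markers moved with the group as well: Myog, Ckm, Acta1, Myh3, Des and Mymk (listed as Tmem8c) were lower. Of 5 myoblast markers, Myf5 and Id3 were higher, Itga7 was lower, Id1 did not pass (0.07, adjusted p = 0.625) and Pax7 was not tested. The summed level of the 5, mostly Itga7, was 1327 to 1443 CPM in shGAA against 1675 to 1749 in shScrambled. The part of this shift in muscle and cell cycle transcripts in the differences of the p53 pathway genes was not tested.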

How the data were processed

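RNA of 6 libraries was measured by sequencing, 3 for each hairpin, from 1 ug of total RNA each. The authors deposited raw read counts per gene symbol in 1 table. The submitters' processing notes name mm10, HISAT2 2.1.0, Subread, FastQC and edgeR; for annotation, strand and multi-mapping reads the settings were not given in the sources used here, so reads of copies or opposite-strand genes may be miscounted. Genes were kept by filterByExpr (11801 of 24421 symbols, at least 99.9% of each library's counts), scaled by TMM (factors 0.979 to 1.02) and tested with edgeR 4.0.16 (R 4.3.3; quasi-likelihood F-test, robust, group only), p-values being adjusted by Benjamini-Hochberg across the 11801 genes. Fold changes are shGAA relative to shScrambled (log2), and CPM uses the scaled library sizes; the SE is the coefficient over the root of F. Alternatives used DESeq2 1.42.0 and limma 3.58.1. On counts simulated for this comparison (11801 genes, 200 changed) 75% of 1.5-fold and 90% of 2-fold changes were recovered, and 8.33% of calls were false. The data had far more calls (38.2% of tested genes) and many smaller changes, so these shares do not carry over to them.

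The members and lists were chosen with earlier results of these data known. All members are reported; library values are given for Trp53, Mdm2, Cdkn1a and up to 5 called members per branch. Other genes named by rule are Gaa, Atm, Cdkn2a, Bcl2l1 and up to 3 called genes with the smallest adjusted p per list, some of which are not reported here. Outside the rule, Sesn2, Sesn3, Gadd45g, Ddit4, Btg1, Bcl2, Thbs1, Cdkn2b, Trp63, Trp73 and the cell type markers named were chosen after their values were seen. So were Xpa, Ercc4, Ddb1, Plk4, Chek1, Ep300, Crebbp, Hipk2 and Topbp1. Lengths, 50-base stretches and exon overlaps come from GENCODE M21, positions and promoters from RefSeq (GRCm38.p6, the assembly of mm10).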

Additional observations from a re-analysis of the deposited data

How the results depend on the processing

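Of the 34 members, 15 to 18 were higher and 2 to 3 lower when single libraries were left out, against 18 and 2 with all. The direction of all 20 called members held under all 14 alternatives, and 17 to 20 of their calls were kept. Higher repair members numbered 2 in DESeq2 and 2 to 4 without single libraries, and 1 repair member was lower after correction for length and GC content. Lower metabolic members numbered 0 to 1 without single libraries. DESeq2 gave 16 higher and 2 lower members. Members near 0 changed sign without passing: scaled by library size alone, Fas was at 0.0217, Aen at 0.0286 and Eda2r at 0.0219 (log2), and after correction for length and GC content Fas was at 0.0220. Without single libraries Btg2 ranged from -0.0201 to 0.0788, Fas from -0.157 to 0.0943, Aen from -0.0637 to 0.0204, Dcxr from -0.0338 to 0.228 and Mdm4 from -0.164 to 0.0444. Low counts limit Perp, Ddb2, Pidd1, Bbc3, Fas and Dcxr, whose SE was 0.15 to 0.24 against a median of 0.07 over the members. Ddit4l, with an SE of 0.20, ranged from 0.84 to 1.34 without single libraries.

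The replicate numbers in the titles gave no sign of pairing: deviations of same-numbered libraries from their group means correlated at -0.04, 0.06 and -0.01. With only 3 libraries per group, a weak pairing could go unseen. With the replicate block 18 members were higher and 2 lower, and 2037 and 2197 of all genes.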
